A study of Mus musculus with 4 samples.

Results

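Interleukin 11 and the other cytokines that signal through gp130, with their receptor chains, Stat3 and Socs3, were examined in fibroblasts at an early stage of reprogramming. A list of 10 genes defined the group: the ligands Il6, Il11, Lif and Clcf1, the receptor chains Il6ra, Il6st, Lifr and Osmr, the transcription factor gene Stat3 and its feedback inhibitor Socs3. Array probes were taken as members when their RefSeq accession mapped to one of these symbols, which gave 15 probes of 9 genes among 41174 probes on the array. No probe was matched to Lif, so Lif is not analysed here. All 15 probes were well above background on all 4 arrays, and all 9 genes therefore entered the test, as did 19174 genes in all.

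Cytokines of this family bind their own receptor chain and then bring together the shared chain gp130, the product of Il6st. The receptor complex activates Jak kinases, which phosphorylate Stat3, and Stat3 in turn induces Socs3, an inhibitor of the receptor complex. In cultured mouse embryonic stem cells the pathway is known through leukaemia inhibitory factor, which acts through Lifr and gp130 and helps to keep the cells undifferentiated, while fibroblasts are a known source of interleukin 6 and interleukin 11.

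The cells were p53-null mouse embryonic fibroblasts (MEFs), in which the tumour suppressor p53 is lacking in both groups, cultured in medium with fetal bovine serum. In both groups total RNA was taken at day 5 after retroviral infection. The first group received OSK, the field's short name for Oct4 (gene Pou5f1), Sox2 and Klf4, and its cell type label is embryonic fibroblast. The second group received OSK together with the zinc finger factor Glis1, and its cell type label is iPSC from embryonic fibroblast. Each group had 2 one-colour arrays, all on 1 slide. The labels do not state whether the samples are from separate cultures, so p-values rest on a spread between samples that may be only technical. These are bulk samples, in which fewer cells of a type and less RNA per cell cannot be told apart.

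Levels below are log2 processed signals after subtraction of the array's own 75th percentile, and a difference is OSK+Glis1 minus OSK on that scale. Between 59.9% and 65.2% of spots were well above background on an array, and precision is limited by the number of arrays. The single Glis1 probe did not separate the groups (log2 difference -0.21, limma adjusted p = 0.598) and may or may not read the delivered copy, which the sources used here do not give, so directions refer to the groups as labelled. Of the factors given to both groups, Pou5f1 was at -4.52 and -5.72 in OSK and at -2.19 and -1.08 in OSK+Glis1, higher by 3.49 on the log2 scale (limma adjusted p = 0.0194), with 3 of 4 arrays well above background. Sox2 (log2 difference 1.12, limma adjusted p = 0.408) and Klf4 (0.14, limma adjusted p = 0.812) did not pass. The Sox2 probe was well above background on only 2 of 4 arrays. The probes of these factors also may or may not read the delivered copies, so their values do not compare delivery between the groups. All 9 fibroblast markers were measured, among them Vim and Col1a2, and 3 of them (Col1a1, Thy1 and Dcn) were lower in OSK+Glis1, where the summed signal of the list was 366 to 406 times the 75th percentile against 427 to 468 in OSK. The summed signal of 6 epithelial markers was 12.1 to 20.8 against 31.6 to 41.1, with Krt14 called lower. Of 6 leukocyte markers with a probe only 1 entered the test, and it was not called. Itgam, Adgre1 and Lyz2 were not well above background on any array. The leukocyte sum, which includes the untested markers, was 0.127 to 0.166 in OSK+Glis1 against 0.146 to 0.224 in OSK. Over all genes tested, limma called 6.06% higher and 8.17% lower. The other lists had 1 call each, all higher. Kdr was called among 2 tested of 6 endothelial markers (sum over the 6: 0.944 to 1.28 against 1.18 to 1.63). Cnn1 was called among 3 tested of 4 smooth muscle markers (21.3 to 49.2 against 23.7 to 32.1). Esrrb was called among 5 tested of 6 pluripotency markers with a probe (0.561 to 1.15 against 0.739 to 1.88). The remaining markers of these lists did not enter the test. Tie1 and Dppa4 of these lists were not well above background on any array. The part of these shifts in the results below was not tested.

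The question was how the gp130 cytokines, their receptors and the Stat3 branch differ when Glis1 is added to OSK. The ligands and the receptor chains moved in both directions, while Il6st, Stat3 and Socs3 did not pass the test. Il11, Clcf1 and Il6ra rose, and Il6, Osmr and Lifr fell. Thus 3 of 9 genes were higher, where 6.06% of all genes tested were called higher by limma at an adjusted p of 0.05, and 3 of 9 were lower, where 8.17% were called lower. Calls in either direction covered 14.2% of all genes. The members were chosen with earlier results of these data known, so these shares do not test whether the family is enriched. The groups did not overlap for 7 of the 9 genes, against 59.9% of all genes. The median difference of the 9 genes was -0.19, beside 0.05 over all genes.

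**Figure D1:**
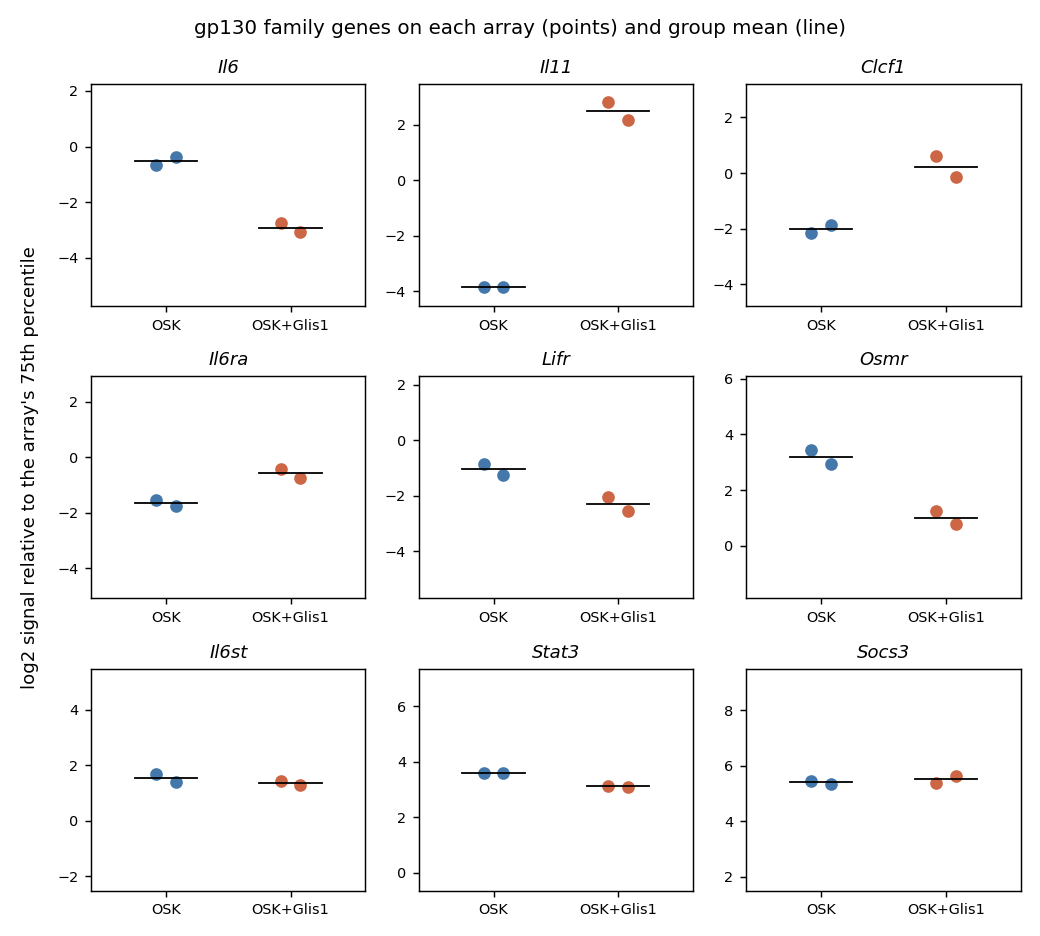
Log2 signal relative to the array's 75th percentile (y axis, 8 log2 units high in every panel but with its own origin) for the probe that stands for each of the 9 genes, in OSK and OSK+Glis1 (x axis); points are the 2 arrays of a group and the line is their mean. Il11 moved from -3.85 to 2.49 on average, Il6 and Osmr moved down, and the points of Il6st and Socs3 overlap between groups.

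Il11, a cytokine that acts on fibroblasts and other stromal cells through its own receptor and gp130, gave the largest difference of the family. Its signal was -3.84 and -3.86 on the OSK arrays and 2.82 and 2.17 on the OSK+Glis1 arrays, which corresponds to processed intensities of 66.2 and 46.2 against 5946 and 4270 units. Both OSK arrays were low and almost equal, and both OSK+Glis1 arrays were far above them. The log2 difference was 6.34 ± 0.26 (SE, n = 2 per group; limma adjusted p = 0.00225), or 81.2-fold. Taking single arrays, the smallest difference between an OSK+Glis1 and an OSK array was 64.6-fold and the largest 102-fold. Genes not well above background on either OSK array were ranked too, although their rises have no measured starting level. On this ranking Il11 had the 18th largest rise among 13511 genes with a symbol. Its call held whichever array was left out, with adjusted p between 0.00697 and 0.027. The size depended on the background correction. Plain normexp gave 4.01 and ended the call (limma adjusted p = 0.367), and it left 0 calls over all 19174 genes. With normexp and median values put in place of local backgrounds that the scanner had flagged, the log2 difference was 5.15 (limma adjusted p = 2.3e-05).

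Il6, the inflammatory cytokine that names the family, went the other way. Its signal was -0.65 and -0.38 in OSK and -2.75 and -3.09 in OSK+Glis1. Both OSK+Glis1 arrays lay below both OSK arrays, and the smallest gap between single arrays was 2.09 log2 units. The log2 difference was -2.40 ± 0.21 (SE, n = 2 per group; limma adjusted p = 0.0048), a 5.28-fold fall. The call was kept without each array in turn, with adjusted p between 0.0158 and 0.0392. Because both genes were read on the same arrays, the ratio of Il11 to Il6 is free of the scaling between arrays. That ratio was higher in OSK+Glis1 by 8.74 log2 units on average and by 8.45 to 9.03 over the 4 pairings of an OSK+Glis1 with an OSK array. An exact two-sided permutation test with 2 against 2 arrays gave p = 0.333, the smallest it can give. Since Il11 rose and Il6 fell, the separation of this ratio adds no support.

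Clcf1 encodes cardiotrophin-like cytokine factor 1, a ligand of the receptor complex that holds the ciliary neurotrophic factor receptor, Lifr and gp130. Its signal was -2.17 and -1.86 in OSK and 0.60 and -0.16 in OSK+Glis1. The groups did not overlap, and the OSK+Glis1 arrays lay further apart than the OSK arrays (SD 0.54 and 0.22, n = 2 each). Clcf1 rose by 2.23 ± 0.31 (SE) on the log2 scale, or 4.70-fold (limma adjusted p = 0.0134). This call was lost without OSK replicate 1 (limma adjusted p = 0.087) and without OSK replicate 2 (limma adjusted p = 0.0742).

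To show what lies upstream of the ligands that moved in opposite directions, the 250 bases before an annotated start of Il11 and of Il6 are given from RefSeq (build GRCm38.p6), each 5′ to 3′ on the gene's strand. These windows were chosen because each holds the letters of an AP-1 motif (TGACTCA, searched on both strands), printed in capitals. AP-1 is the factor family of Fos and Jun proteins.
Il11, chr7:4778142-4778391, minus strand: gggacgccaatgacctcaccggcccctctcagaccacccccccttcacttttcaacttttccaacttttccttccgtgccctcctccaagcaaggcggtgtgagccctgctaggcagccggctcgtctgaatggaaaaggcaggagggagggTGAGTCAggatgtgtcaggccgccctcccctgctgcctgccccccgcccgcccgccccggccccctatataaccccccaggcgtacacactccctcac
Il6, chr5:30012864-30013113, plus strand: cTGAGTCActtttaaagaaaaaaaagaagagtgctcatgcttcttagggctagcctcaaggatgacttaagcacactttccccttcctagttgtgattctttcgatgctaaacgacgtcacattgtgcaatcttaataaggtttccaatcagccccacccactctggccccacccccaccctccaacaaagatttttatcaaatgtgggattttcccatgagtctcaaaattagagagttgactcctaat
The match begins 98 bases before the start in Il11 and 249 bases before the start in Il6, which is next to the edge of the window. A second annotated Il11 start has no match, and the sources used here do not say which start the array probe's transcript uses. The table held windows for 9 of the 10 listed genes, and 3 of them (Il6, Il11 and Lif) had an AP-1 match in at least 1 window. Counted by window, 3 of the 11 windows of listed genes held the motif, beside 4.46% of all 32851 promoter windows of this length. A Gli motif (TGGGTGGTC, both strands) was found in 0 of the 11 windows of listed genes and in 0.225% of all windows. The AP-1 and Gli matches are descriptions of letters and say nothing of binding.

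The receptor chains did not move as one. Osmr encodes the oncostatin M receptor chain, which pairs with gp130. Its brighter probe was at 3.43 and 2.95 in OSK and at 1.25 and 0.77 in OSK+Glis1, so that the groups lay at least 1.70 log2 units apart. Osmr fell by 2.18 ± 0.27 (SE, n = 2 per group) on the log2 scale, or 4.53-fold, with a limma adjusted p of 0.0102. Its call was lost without OSK replicate 1 (limma adjusted p = 0.0593). A second, dimmer Osmr probe was at -1.99 and -2.36 in OSK and at -4.48 and -4.50 in OSK+Glis1, a log2 difference of -2.31 ± 0.20 (SE). When all 25877 probes were fitted one by one this probe had a limma adjusted p of 0.00463.

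Lifr, the chain that pairs with gp130 for leukaemia inhibitory factor, had 5 probes, and all 5 were lower in OSK+Glis1. The brightest was at -0.86 and -1.25 in OSK and at -2.03 and -2.53 in OSK+Glis1, with no overlap between groups. Its log2 difference was -1.23 ± 0.26 (SE, n = 2 per group), a 2.34-fold fall, with a limma adjusted p of 0.0437 that lies close to the threshold. The 5 probes gave differences from -1.56 to -0.83 and adjusted p from 0.00929 to 0.0499 in the fit of all probes, in which 7.78% of all probes were called lower. The probes read 1 accession on the same 4 arrays and are not independent replicates. The gene lost its call whichever array was dropped, with adjusted p of 0.153 and 0.104 without OSK replicates 1 and 2, and 0.0629 and 0.153 without OSK+Glis1 replicates 1 and 2. In the authors' deposited log2 values Lifr had a limma adjusted p of 0.0507, and without the filter on dim probes 0.123.

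Il6ra encodes the receptor chain that binds interleukin 6 itself. Its brighter probe was at -1.54 and -1.75 in OSK and at -0.40 and -0.73 in OSK+Glis1, and both OSK+Glis1 arrays were higher. The log2 difference was 1.07 ± 0.20 (SE, n = 2 per group), or 2.10-fold (limma adjusted p = 0.0326). The second Il6ra probe, at -2.34 and -2.60 against -1.29 and -1.51, gave 1.07 ± 0.19 (SE) and an adjusted p of 0.0293 in the fit of all probes, in which 5.62% of all probes were called higher. Like that of Lifr, the call of Il6ra was lost without any 1 array: adjusted p was 0.0926 and 0.133 without OSK replicates 1 and 2, and 0.146 and 0.0664 without OSK+Glis1 replicates 1 and 2. It was 0.108 without the filter on dim probes.

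Il6st, the gene of gp130, was at 1.69 and 1.42 in OSK and at 1.44 and 1.28 in OSK+Glis1. The groups overlapped. The log2 difference was -0.19 with a 95% confidence interval from -0.69 to 0.30 (limma adjusted p = 0.573), so a change beyond 0.69 in either direction lies outside the interval. Within arrays, the ratio of Osmr to Il6st was lower in OSK+Glis1 by 1.72 to 2.25 log2 units over the 4 pairings of arrays. Likewise the ratio of Il6ra to Osmr was higher by 3.04 to 3.46, that of Il6ra to Lifr by 2.13 to 2.48 and that of Clcf1 to Lifr by 2.98 to 3.94. These 4 ratios each had the smallest p that an exact two-sided permutation of 2 against 2 arrays can give (p = 0.333). Each joins genes that differed in direction or in call, so the separation of the groups adds no support.

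**Figure D2:**
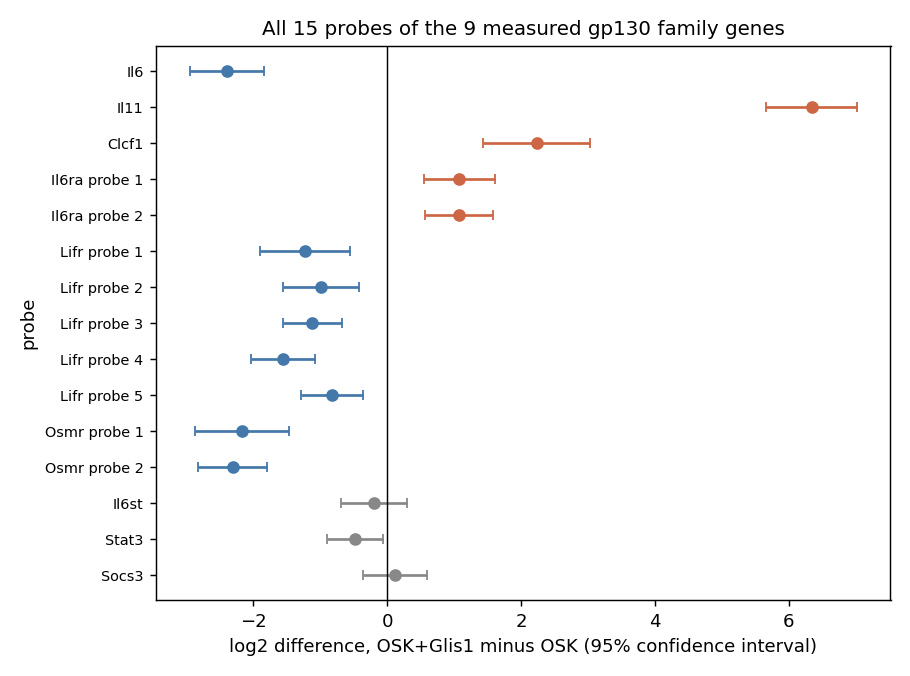
Log2 difference, OSK+Glis1 minus OSK (x axis), with its 95% confidence interval from limma for each of the 15 probes (y axis), where probes of a gene are numbered from the brightest in OSK; colours mark probes called higher (orange), called lower (blue) and not called (grey) at an adjusted p of 0.05 over all probes. All 5 Lifr probes and both Osmr probes lie below 0, both Il6ra probes lie at 1.07, and the intervals of Il6st and Socs3 include 0.

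Downstream of the receptors, Stat3 was at 3.60 and 3.61 in OSK and at 3.13 and 3.11 in OSK+Glis1. The 2 arrays of each group were nearly equal, and the groups did not overlap. The log2 difference was -0.49 ± 0.16 (SE, n = 2 per group), with a confidence interval from -0.90 to -0.07 and an unadjusted p of 0.0303, but it did not pass the test over all genes (limma adjusted p = 0.125). Over 13 other processing settings the Stat3 difference lay between -0.57 and -0.08 and never passed. It was -0.33 in the authors' deposited values and -0.08 with plain normexp. The arrays read Stat3 messenger RNA only, and phosphorylation of the protein was not measured.

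Socs3 was at 5.46 and 5.34 in OSK and at 5.39 and 5.64 in OSK+Glis1, with overlapping groups. Its log2 difference was 0.11 with a confidence interval from -0.36 to 0.59 (limma adjusted p = 0.738), and it turned to -0.01 without OSK+Glis1 replicate 2. The 250 bases before the Socs3 start are shown because they hold, in capitals, the only match of a STAT motif (TTCNNNGAA, both strands) among the 11 windows of listed genes. The motif occurred in 7.02% of all windows.
Socs3, chr11:117969367-117969616, minus strand (GRCm38.p6): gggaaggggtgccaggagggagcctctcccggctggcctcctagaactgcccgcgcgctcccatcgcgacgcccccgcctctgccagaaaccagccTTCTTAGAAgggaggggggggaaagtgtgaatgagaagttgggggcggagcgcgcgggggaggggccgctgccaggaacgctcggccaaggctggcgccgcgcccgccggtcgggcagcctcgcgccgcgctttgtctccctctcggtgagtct
The match begins 154 bases before the start. No match in the other windows says only that these letters are not there.

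The rest of the pathway was followed through 6 further lists with 62 genes, of which 56 were tested. By limma 4 were higher and 5 lower, together with a median difference of 0.02 beside 0.05 over all genes. These counts stand beside the 14.2% of all genes called in either direction, a share close to that of the lists.

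Among the other ligands 1 of 5 tested genes was higher. Ebi3, a soluble subunit shared by dimeric cytokines of the family, was at -3.36 and -3.88 in OSK and at -1.65 and -1.89 in OSK+Glis1. It rose by 1.85 ± 0.25 (SE) on the log2 scale (limma adjusted p = 0.0119), a call lost when OSK replicate 2 (limma adjusted p = 0.0525) or OSK+Glis1 replicate 1 was left out (limma adjusted p = 0.0553). With flagged backgrounds replaced the difference was 1.17 (limma adjusted p = 0.00293), but with plain normexp it was 0.13 and the call was lost (limma adjusted p = 0.919). Cntf (log2 difference 0.69), Ctf1 (0.39), Ctf2 (-0.15) and Il27 (0.03) did not pass. Cntf passed with median centring (limma adjusted p = 0.0399), in the authors' deposited values (0.0386) and with flagged backgrounds replaced (0.0439). Osm and Il31 were too dim to enter the test.

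Of 3 other receptor genes tested 1 was higher. Il27ra, the receptor for the cytokine made of the Il27 and Ebi3 products, was at -4.52 and -4.59 against -2.65 and -3.40, and rose 2.89-fold (limma adjusted p = 0.0328). The Il27ra call was lost without OSK replicate 1 (limma adjusted p = 0.131), OSK replicate 2 (0.149) or OSK+Glis1 replicate 1 (0.0761). It was also lost without the filter on dim probes (limma adjusted p = 0.0933) and with flagged backgrounds replaced, where the log2 difference was 0.64 (limma adjusted p = 0.093) instead of 1.53, and plain normexp turned the sign (-0.54). Il11ra1, the receptor chain for interleukin 11, was at 3.35 and 3.30 in OSK and at 4.41 and 3.84 in OSK+Glis1, a log2 difference of 0.80 ± 0.24 (SE) that did not pass (limma adjusted p = 0.105). Cntfr had a difference of 0.89 (limma adjusted p = 0.161) with 1 of its OSK arrays not well above background, and the sign turned with both normexp settings (-1.21 and -0.0082).

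Among kinases, adaptors and other Stat genes 1 of 10 was called. Stat5a, a transcription factor used by several cytokine receptors, was at 2.11 and 1.79 in OSK and at 0.41 and 0.35 in OSK+Glis1. It fell by 1.57 ± 0.19 (SE) on the log2 scale, or 2.96-fold (limma adjusted p = 0.00974). The kinase genes Jak1 (log2 difference -0.46) and Jak2 (-0.42) and the adaptors and phosphatase Gab1 (0.71), Grb2 (0.15) and Ptpn11 (0.33) did not pass. Gab1 passed with each array centred on its median (limma adjusted p = 0.0475), in the authors' deposited values (0.0468) and with flagged backgrounds replaced (0.0292).

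Of 11 negative regulators 1 was higher and 1 lower. Socs7 was at -4.37 and -4.42 against -3.32 and -3.50, a log2 difference of 0.98 ± 0.17 (SE; limma adjusted p = 0.0255). Socs6 was at 1.89 and 1.79 against 1.07 and 1.12, a difference of -0.74 ± 0.16 (SE; limma adjusted p = 0.0492). Both are relatives of Socs3, and both calls were lost without any 1 array, with adjusted p from 0.0833 to 0.135 for Socs7 and from 0.119 to 0.213 for Socs6. Socs7 also lost its call without the filter on dim probes (limma adjusted p = 0.099) and with flagged backgrounds replaced (log2 difference 0.38, limma adjusted p = 0.226), and plain normexp turned its sign (-0.71). Socs6 lost its call with median centring (limma adjusted p = 0.0807), in the authors' deposited values (0.0827), without the filter (0.167) and with the replicate number as a block (0.0938). Cish, a Stat5-induced member of the same family, had a difference of -1.06 (limma adjusted p = 0.0674) and passed without OSK+Glis1 replicate 2 (limma adjusted p = 0.0436) and with flagged backgrounds replaced (0.0254). Ptpn2 (0.54), Socs1 (0.43) and Socs2 (0.33) did not pass.

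Genes known as Stat3 targets were called higher in 1 and lower in 2 of 18 cases, with a list median of -0.00066. Cebpd, a transcription factor of the acute phase response, was at 6.03 and 6.04 in OSK and at 3.94 and 4.09 in OSK+Glis1. Cebpd fell by 2.02 ± 0.17 (SE), or 4.05-fold (limma adjusted p = 0.00414). Icam1, an adhesion molecule, was at -2.84 and -2.16 against 0.53 and -0.09 and rose 6.61-fold (limma adjusted p = 0.0101). The Icam1 call was lost without OSK replicate 1 (limma adjusted p = 0.0572). Myc, at 2.31 and 2.07 against 0.01 and 0.49, was the other gene called lower, and its call was lost without OSK replicate 1 (limma adjusted p = 0.0661) and OSK replicate 2 (0.0562). Pim1 (log2 difference 0.85), Pim3 (-0.88) and Lrg1 (-0.60) did not pass. Pim1 passed with median centring (limma adjusted p = 0.0385), in the authors' deposited values (0.0385) and with flagged backgrounds replaced (0.0456), and Pim3 with flagged backgrounds replaced only (limma adjusted p = 0.0381).

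AP-1 factor genes, whose proteins are known regulators of Il11 transcription, gave 1 call among 9 tested genes. Fosl2 was at 0.04 and 0.03 in OSK and at -0.83 and -1.34 in OSK+Glis1, a fall of 1.12 ± 0.23 (SE; log2, limma adjusted p = 0.0394). That call was lost without OSK replicate 1 (limma adjusted p = 0.139), OSK replicate 2 (0.147) and OSK+Glis1 replicate 2 (0.135), with median centring (0.0568), in the authors' deposited values (0.0599), with all probes of the gene averaged (0.0526) and without the filter on dim probes (0.119). Jun (0.45), Fosb (0.24), Fosl1 (-0.39) and Batf3 (-0.46) did not pass. Atf3 was at 1.17 and 0.46 in OSK and at 0.71 and -2.47 in OSK+Glis1, so its replicate 2 stood apart from the other arrays (log2 difference -1.70 ± 1.06 SE, limma adjusted p = 0.37), and without OSK+Glis1 replicate 1 the adjusted p was 0.0195.

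**Figure D3:**
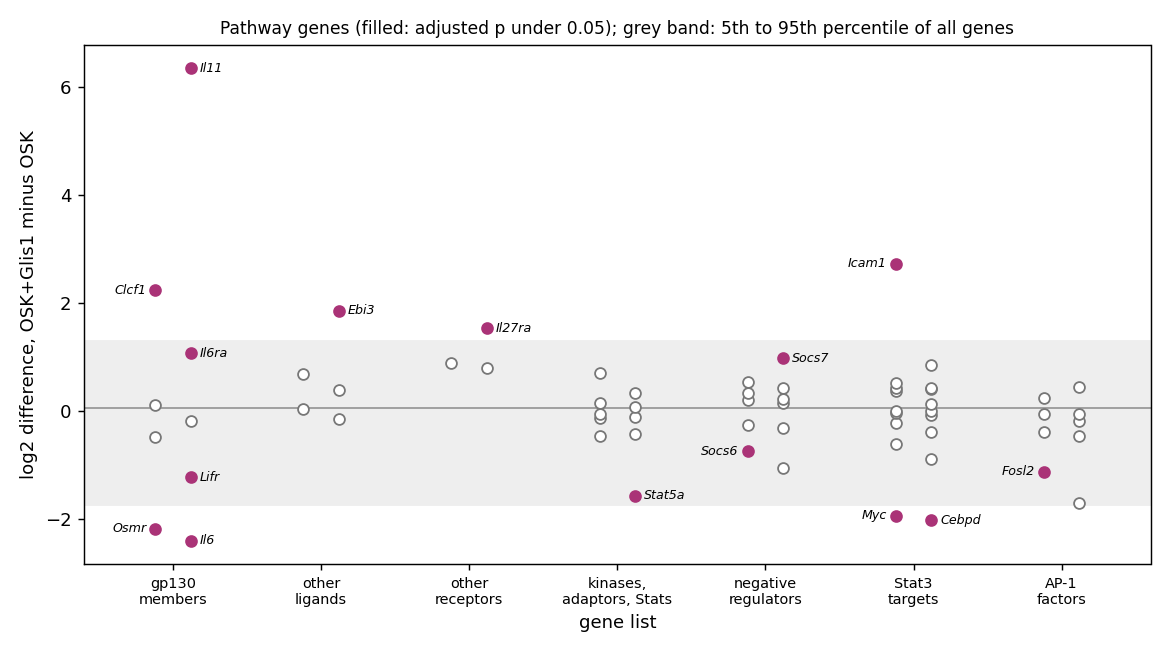
Log2 difference, OSK+Glis1 minus OSK (y axis), for the 9 gp130 family genes and the 56 tested genes of the other lists (x axis); each point is a gene, filled and named where the limma adjusted p was under 0.05, the grey band spans the 5th to 95th percentile of all genes (-1.74 to 1.29) and the line is their median. Il11 lies farthest above the band, and Il6, Osmr, Cebpd and Myc lie below it.

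Among genes well above background on both OSK arrays, those whose pattern over the 4 arrays was most like that of Il11 were Col9a2 and Igfbp4. Likeness was the root mean square distance between log2 values centred on each gene's own mean, which was 0.233 for Col9a2 and 0.315 for Igfbp4. Col9a2, a chain of cartilage collagen, was at -2.48 and -3.11 in OSK and at 3.94 and 3.44 in OSK+Glis1. Igfbp4, which binds insulin-like growth factors, was at -1.92 and -1.04 against 5.14 and 4.48. The same rule also gave Tmod1 and Tns4, which were not well above background on either OSK array, so their distances and rank rest on values without a measured level and are not given. Set against the lowest signal that was well above background, Tmod1 was 25.2-fold and Tns4 26.3-fold higher in the scanner's processed signal. With flagged backgrounds replaced their log2 differences were 1.98 and 2.08, beside 5.15 for Il11, 5.77 for Col9a2 and 5.99 for Igfbp4. With plain normexp the values were 0.47 and 0.54, beside 4.01, 4.85 and 5.62 in the same order. The size of the Tmod1 and Tns4 rises thus depended on the background correction. With 4 arrays in 2 groups, such likeness mainly reflects a difference of the same size between the groups.

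The members differed in how far their values moved with the processing. Over 13 alternatives Il11 lay between 4.01 and 6.67 and Il6 between -2.57 and -1.88. Both lost their call with plain normexp background correction alone, a setting that left 0 calls over all genes. Osmr lay between -2.42 and -1.80, Lifr between -1.48 and -0.94 and Clcf1 between 1.44 and 2.61. Il6ra lay between 0.28, with plain normexp (limma adjusted p = 0.747), and 1.24. None of the called members changed direction under any of the 13. Il6st reached 0.04 with plain normexp and Socs3 ranged from -0.01 to 0.52.

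**Figure D4:**
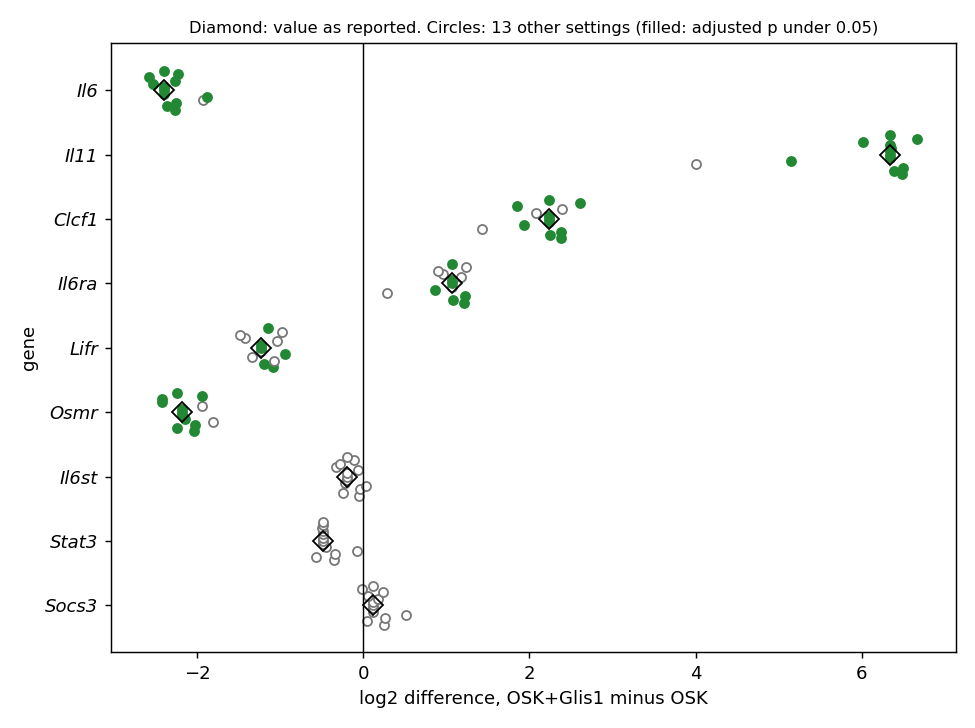
Log2 difference, OSK+Glis1 minus OSK (x axis), of the 9 genes (y axis) as reported (diamond) and under 13 other settings (circles, filled where the limma adjusted p was under 0.05, spread vertically for sight only). Il6 and Il11 have 1 open circle each, Lifr has 7 and Il6ra 6, and all circles of Il6st, Stat3 and Socs3 are open.

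Centring did not set the direction of any called member, but it moved the whole table. The share of called genes that were higher was 42.6% with the 75th percentile as the reference, 53.6% when medians were aligned and 54.4% when the authors' deposited values were used. The all-gene median difference was 0.05, 0.20 and 0.21 in the same order. Il6ra, whose difference is the smallest of the called members, was thus 1.07 against an all-gene median of 0.05.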

How the data were processed

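The 4 RNA samples were labelled with Cy3, per the labels, and read on one-colour arrays. The scanner tables that the authors deposited hold intensity values from Agilent's Feature Extraction software, version 10.7.3.1. The deposited processed signal is background-subtracted and detrended, with no step between arrays, per the file headers. The authors also deposited log2 values, which match the scanner's log2 signal minus 1 constant per array for 99.8% to 99.9% of probes (within 0.01). That table is therefore on a log2 scale, its direction is that of the scanner values and it is not centred per gene. Its column medians lay between -0.00016 and 0.000216, so each array was centred on its median. The sources used here do not name its tool.

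Here the 75th percentile of each array's log2 signal was subtracted. These percentiles ran from 669 to 951 intensity units. Flagged spots were dropped, spots of a probe averaged, and 71 probes left out that lacked an unflagged spot on some array. A probe was tested when both arrays of at least 1 group were well above background. Symbols came from RefSeq (GRCm38.p6) by accession (26933 probes). The array annotation is of build mm9, so promoter windows alone carry coordinates. The brightest probe stood for a gene. Groups were compared with limma 3.58.1 in R 4.3.3 (2 residual and 2.82 prior degrees of freedom), two-sided, Benjamini-Hochberg over all genes. The steps were tested on simulated data. Named genes were all members, up to 6 genes per list (called first, then by size) and the 5 nearest to Il11. Of these, 1 gene of the receptor list, which was taken out of the list and its counts, and 1 of the 5 nearest are not reported here. Members and lists were chosen with earlier results of these data known. Alternatives were other normalizations, backgrounds, filters, probe rules, a replicate block and leaving out arrays. The planned normexp used the median spot signal, because no mean signal column was found in the tables.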

Additional observations from a re-analysis of the deposited data

How the results depend on the processing

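Over all genes 1161 were called higher and 1566 lower. Leaving out 1 array in turn gave 449 to 787 higher and 664 to 1093 lower over all genes, 1 to 2 higher and 1 to 2 lower members, 1 to 3 higher and 2 to 5 lower genes of the other pathway lists, and 1 to 2 higher and 2 to 4 lower member probes (4 and 8 with all arrays). The group left with 1 array is then assumed to vary like the other. Without a filter on dim probes 554 genes were higher and 950 lower, with 2 and 3 of the other pathway genes and 2 and 4 of the member probes, where 32172 genes share the adjustment. With medians aligned, and likewise with the deposited values, 7 of the other pathway genes were higher and 3 lower, and in the deposited values 5 member probes were lower. Plain normexp left 0 calls by limma in each of these sets, higher or lower, with 1411 genes, 4 members, 3 other pathway genes and 5 member probes at an unadjusted p under 0.05. The cause was not tested, but with flagged local backgrounds replaced 1260 genes were higher and 1761 lower. Signs turned, without a call on the turned side, for Il6st (0.036), Pim1 (-0.13), Socs7 (-0.71), Il27 (-0.38), Il27ra (-0.54) and Cntfr (-1.21) with plain normexp and for Cntfr (-0.0082) with backgrounds replaced. The sign of Ctf2 turned with quantile normalization (0.034) and in the deposited table (0.0040). Dropping 1 array turned the sign of 6 genes, whose ranges were -0.014 (without OSK+Glis1 replicate 2) to 0.24 for Socs3, -0.82 to 0.042 (without OSK replicate 2) for Fosl1, -0.64 (without OSK+Glis1 replicate 1) to 1.12 for Fosb (below 0 also without OSK replicate 2), -0.85 to 0.0094 (without OSK replicate 1) for Jak2, -0.42 to 0.12 (without OSK replicate 1) for Ctf2 and -0.28 (without OSK replicate 1) to 0.33 for Il27 (below 0 also without OSK+Glis1 replicate 1). Deviations of same-numbered replicates were nearly uncorrelated over all genes (correlation 0.00927). With 2 arrays per group this cannot exclude a pairing. With the replicate number as a block 1112 genes were higher and 1543 lower, the members' calls stayed at 3 and 3, and among the named genes the call of Socs6 was not reached (adjusted p = 0.0938). Slide as a block could not be fitted, since all arrays lay on 1 slide. Probes near background, such as those of Cntfr and Ctf2, have the least certain directions.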
